A study of Mus musculus with 6 samples.

Results

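Neurotensin and its receptors were examined by RNA-seq in mouse female germline stem cells (FGSCs) kept in culture, with and without knockdown of CTCF. The group held 4 genes of the 24732 symbols with FPKM values, namely Nts, which encodes the peptide, its G protein-coupled receptors Ntsr1 and Ntsr2, and Sort1, which encodes the sorting receptor sortilin. The genes were taken by symbol, and they were chosen with their levels in this same contrast already known, so their levels are described here and not tested. FPKM values are fragments scaled to the length of the transcript and to the number of mapped fragments.

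The labels placed 3 samples in a control group and 3 in a group with short hairpin RNA knockdown of CTCF (shCTCF), and CTCF is known to bind DNA and to anchor the ends of chromatin loops. Every sample was labelled as FGSCs of strain C57BL/6 at more than 20 passages, grown on inactivated STO fibroblasts as a feeder layer with LIF, EGF, bFGF and GDNF. By the study's methods, FGSCs came from the ovaries of neonatal Ddx4-Cre; mT/mG mice, in which Cre is driven in germ cells by Ddx4, and the hairpin was delivered with a lentivirus followed by selection with puromycin. The labels do not say what the controls received, nor whether the replicates were separate cultures. The p-values therefore measure the spread between these samples, which may be technical.

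Neurotensin is a short peptide of the gut and the nervous system that is cut by prohormone convertases from a precursor, which also yields neuromedin N. At its target cells it binds Ntsr1 with high affinity and Ntsr2 with lower affinity, and Ntsr1 acts mainly through Gq and phospholipase C. Sortilin, also described as the third neurotensin receptor, has a VPS10P domain, carries cargo between the Golgi, endosomes and the cell surface, and is not a G protein-coupled receptor. Nts is known as a gene with low activity in most cells outside the gut and brain, and its promoter is known from rat studies to respond to AP-1, CREB and glucocorticoid signals.

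The 250 bases before the start of Nts are shown because Nts was the member whose level differed most between the groups. They are from the RefSeq promoter table of assembly GRCm38.p6 (chr10:102490419-102490668, minus strand, 5′ to 3′), and capitals mark matches to the motif letters described after it.
Nts promoter: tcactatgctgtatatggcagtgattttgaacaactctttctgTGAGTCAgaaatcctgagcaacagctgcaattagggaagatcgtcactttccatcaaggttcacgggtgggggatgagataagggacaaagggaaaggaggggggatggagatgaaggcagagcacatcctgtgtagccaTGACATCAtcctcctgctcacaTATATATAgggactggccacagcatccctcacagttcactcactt

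Both strands of these 250 bases were searched for 6 motifs, and the same was done for the 32851 promoters of the table. An AP-1 motif, TGANTCA, was matched by TGAGTCA at 207 to 201 bases before the start of Nts, and 6.75% of all promoters held this motif. A CRE-like motif, TGACNTCA, was matched by TGACATCA at 67 to 60 bases, compared with 7.49% of all promoters. The TATA-like letters TATATA occurred at 45 to 40 and at 43 to 38 bases, which overlap, and 5.25% of promoters held them. TATAAA (12.4% of promoters), a glucocorticoid response element consensus (0.387%) and a core of the CTCF consensus (2.93%) had no match in the window. Promoters were present in the table for 3 of the 4 members, and those of Ntsr1 and Ntsr2 held none of the 6 motifs. A match describes letters only and is not evidence that a factor binds there.

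Sort1 has 2 transcript forms in the deposited tables, which differ by an exon of 99 bases. The exon is shown because it is the only part of Sort1 whose fragments could be counted for a single form. It lies on the plus strand of mm9 at chr3:108158390-108158488, it is exon 18 of 21, and it is coding, with 33 codons. It is printed whole and without capitals, since all of it is the difference between the forms.
Sort1 exon: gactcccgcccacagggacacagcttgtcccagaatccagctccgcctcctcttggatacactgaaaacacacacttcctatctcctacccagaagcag

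Between 1686052 and 7044272 fragments were counted per sample, with the smallest total in control replicate 2, and 3 counts corresponded to 0.426 to 1.78 CPM (counts scaled to the library total). Ctcf, the target of the hairpin, was at 55.9 ± 2.34 FPKM (SD, n = 3) in the control and at 0.640 ± 0.0956 in the shCTCF group (log2 fold change of FPKM + 1 -5.12, adjusted p = 1.1e-08, limma). Ctcf had 0 counts in every sample, controls included, but fragments on exons shared between its 2 transcript forms were not assigned. Its counts therefore say little of its level, and in these data its fall rests on FPKM alone. The defining FGSC markers were nearly absent. Ddx4, Pou5f1, Dppa3, Gfra1 and Dazl were listed at 0 FPKM in every control and had means of at most 0.125 in the shCTCF group, and the summed level of the 6 FGSC markers was 0 to 1.21 FPKM in the control and 10.5 to 11.4 in the shCTCF group, where Ifitm3 held 10.8 ± 0.327. The 13 leukocyte and mast cell markers summed to 2256 to 2338 FPKM in the control and 2905 to 3043 in the shCTCF group, with Ptprc at 104 ± 17.5 and 115 ± 6.83, Kit at 575 ± 35.8 and 787 ± 14.4, and Fcer1a at 0. Of the 12 of these markers that were tested, 4 were higher, 4 were lower and 4 did not pass the threshold. Across all genes tested on FPKM, 28.8% were higher and 44.2% were lower. The granule proteases Ctsg and Cpa3 fell, with Ctsg at 151 ± 19.4 and 2.22 ± 0.278 FPKM (log2 fold change -5.55, adjusted p = 2.2e-08, limma) and Cpa3 at 281 ± 56.7 and 88.0 ± 13.1 (-1.65, adjusted p = 5.1e-05, limma). Coro1a fell from 244 ± 25.8 to 113 ± 5.20. Srgn, at 174 ± 44.4 and 770 ± 30.6, and Laptm5, at 181 ± 8.25 and 458 ± 10.02, rose. The data therefore did not bear out the germline label by its markers, and the label is kept only as the name of the samples.

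Nts was nearly silent in the control and was among the more abundant transcripts of the shCTCF group. Its level was 0, 0 and 0.0736 FPKM in control replicates 1 to 3, and 196, 181 and 187 FPKM in shCTCF replicates 1 to 3. The groups were far apart, and the spread within the shCTCF group was small beside the distance between them. The means were 0.0245 ± 0.0425 and 188 ± 7.22 FPKM (SD, n = 3), and the difference of the mean log2(FPKM + 1) was 7.53. In these bulk samples, more cells of a type and more RNA per cell cannot be told apart.

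The fragment counts, which come from the other deposited table, gave the same order. Nts has 1 RefSeq accession of 4 exons and 1180 bases, at chr10:101944390-101953052 on the minus strand of mm9, and its exons overlap no other gene of the table, so no fragment was lost to an overlapping annotation. The controls held 1, 0 and 2 fragments, whereas the shCTCF samples held 2530, 2129 and 2776. No control thus exceeded the floor, set at 3 fragments for a library. Scaled to the library, the means were 0.139 ± 0.136 CPM and 441 ± 20.8 CPM (SD, n = 3). The sums were 3 and 7435 fragments. Divided by the library sizes after TMM normalization, they gave a ratio of 2362, with an exact (Clopper-Pearson) 95% interval of 808 to 11457 that covers counting error only, and library totals alone gave 2106.

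By FPKM, Nts ranked at 333 among the 9931 genes that averaged 1 FPKM or more in the shCTCF group. In the control it ranked at 12347, below all of the 9698 genes that reached a mean of 1 FPKM there. Of 12789 genes that stayed under 0.1 FPKM in every control, 27 were at 10 FPKM or more in every shCTCF sample, and only Nts was at 100 FPKM or more in each of them. These limits were set after the values had been seen.

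The G protein-coupled receptors of the peptide were not detected in either group. Ntsr1, the high-affinity receptor, lies at chr2:180234681-180279684 on the plus strand, with 1 accession of 4 exons and 3916 bases, none of them shared with other genes. It was listed at 0 FPKM and had 0 fragments in all 6 samples, so a level below 3 counts, or 0.426 to 1.78 CPM depending on the library, could not be seen. Ntsr2, the low-affinity receptor, lies at chr12:16660276-16667042 on the plus strand and was also listed at 0 FPKM with 0 fragments in all 6 samples. Its 3 accessions overlap in every exon, so its fragments could not be assigned in the count table and only its FPKM bear on its level.

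Sort1, at chr3:108086982-108164437 on the plus strand, was expressed in every sample. Its level was 11.98, 13.4 and 11.8 FPKM in control replicates 1 to 3, and 9.84, 9.95 and 9.96 FPKM in shCTCF replicates 1 to 3. Each shCTCF sample was below each control, and control replicate 2, the smallest library, was the highest. The means were 12.4 ± 0.917 and 9.91 ± 0.0652 FPKM (SD, n = 3), a ratio of 0.80, and the difference of the mean log2(FPKM + 1) was -0.29. The median difference over all genes tested was -0.17 on the same scale. With samples scaled to the same median FPKM the difference of Sort1 was -0.12, while the median of all genes was -0.01. Sort1 ranked at 5438 in the control and at 5685 in the shCTCF group.

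The count table held almost nothing of Sort1, with 2, 1 and 2 fragments per control and 3, 4 and 0 per shCTCF sample. Its accessions of 6930 and 6831 bases share all of their sequence but the 99-base exon printed above, and fragments on shared exons were not assigned. These counts therefore say little about the level of the gene.

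Of the 4 members, 2 reached a mean of 1 FPKM and entered the test across all genes, and both were past its threshold, as were 73% of the 9976 genes tested (28.8% higher and 44.2% lower). On counts 1 member, Nts, was tested and was past the threshold, as were 69.1% of 7341 genes (34.8% higher and 34.3% lower). Since the members were chosen on this contrast, nothing is read from these calls.

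**Figure D1:**
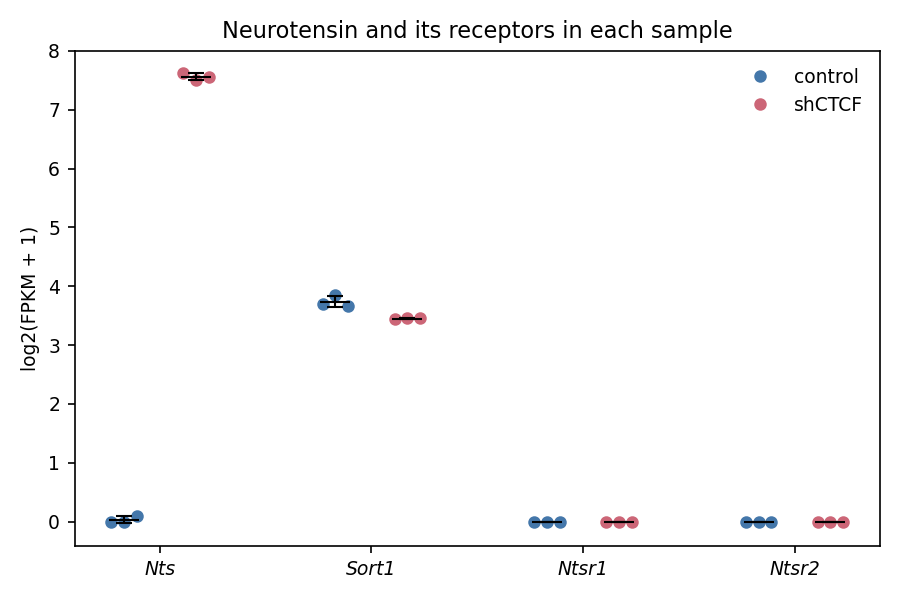
Level of each member in the 6 samples, as log2(FPKM + 1); points are samples (blue, control; red, shCTCF), and bars give the mean and SD of 3 samples. Nts separates the groups by 7.53, Sort1 by -0.29, and Ntsr1 and Ntsr2 lie at 0 in every sample.

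Nts and Sort1, the ligand and the only receptor with a level above 0, can be set side by side on the FPKM scale, which is per length. In the controls Sort1 was the more abundant, at 12.4 FPKM on average against 0.0245 for Nts. In shCTCF replicates 1 to 3 the level of Nts was 19.9, 18.2 and 18.8 times that of Sort1 (mean 19.0 ± 0.84, SD). The order of the pair was therefore opposite in the groups, in every sample.

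The form of Sort1 with the 99-base exon, known as exon 17b, was at 4.35, 6.89 and 4.79 FPKM in control replicates 1 to 3, and at 4.02, 4.84 and 5.08 FPKM in shCTCF replicates 1 to 3. The groups overlapped, and control replicate 2 was the highest. The form without the exon was at 7.63, 6.55 and 6.96 FPKM in the controls and at 5.82, 5.10 and 4.87 FPKM in the shCTCF samples, and these groups did not overlap. Its means were 7.05 ± 0.548 and 5.27 ± 0.492 FPKM (SD, n = 3). The form with the exon made up 36.3, 51.3 and 40.8% of the summed FPKM of Sort1 in control replicates 1 to 3, and 40.9, 48.7 and 51.1% in shCTCF replicates 1 to 3. The shares overlapped between the groups, with means of 42.8 ± 7.70% and 46.9 ± 5.33%. The split rests on how the transcript estimate divided fragments of shared exons, and its depth is unknown.

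**Figure D2:**
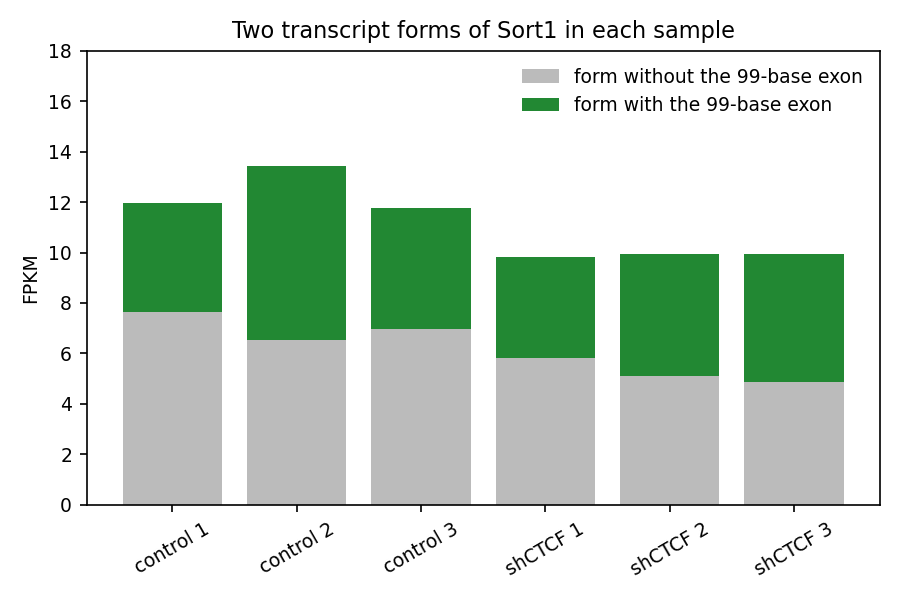
FPKM of the Sort1 form with the 99-base exon (green) and of the form without it (grey), stacked for each of the 6 samples, so that the full bar is the level of the gene. The full bars are lower in the shCTCF samples, and the green part makes up 36.3 to 51.3% of the bar in the controls and 40.9 to 51.1% in the shCTCF samples.

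The surroundings of Nts were silent. Within 1 Mb of the gene the count table listed 6 others, Slc6a15, Lrriq1, Alx1, Rassf9, Mir3059 and Mgat4c, and all were at 0 FPKM in every control. The highest value in an shCTCF sample was 0.0953 FPKM, for Mgat4c (0.0785 ± 0.0182, SD, n = 3), which encodes an N-acetylglucosaminyltransferase. Rassf9, which encodes a Ras-association domain protein, was the nearest gene, at 21.8 kb. No fragment of any of the 6 was counted in a control, and at most 2 were counted in an shCTCF sample. Mgat4c has 4 transcript forms, Lrriq1 and Slc6a15 have 3 each, and fragments on exons shared between forms were not assigned. The counts of these genes therefore say little of their level. None of the 6 reached the mean of 1 FPKM needed for the test. Nts was therefore the only gene of this window above 1 FPKM in any sample.

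**Figure D3:**
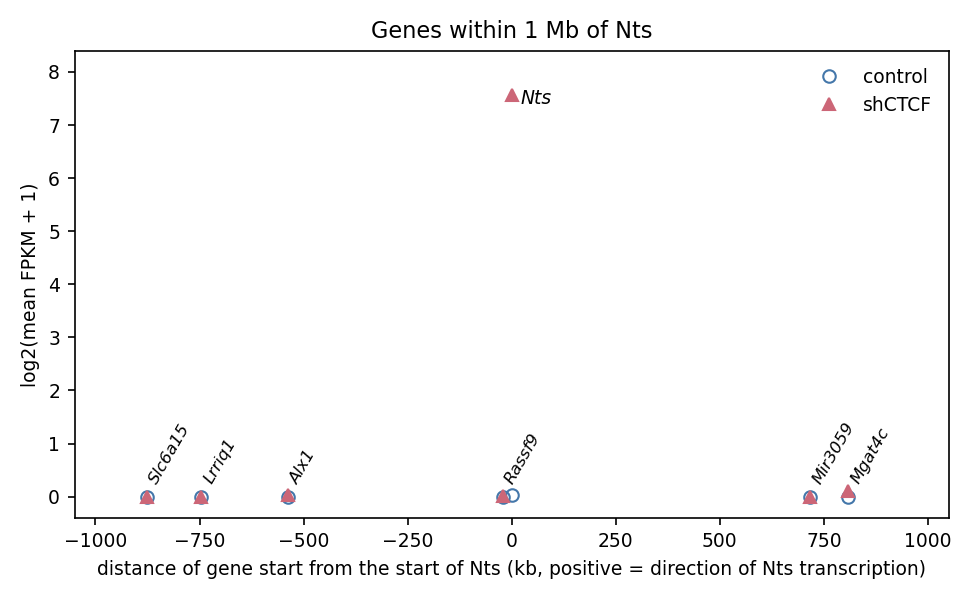
Mean FPKM of Nts and of the 6 genes within 1 Mb of it, as log2(mean FPKM + 1), against the distance of each start from that of Nts in kb; circles are the control and triangles the shCTCF group (3 samples each). Only the triangle of Nts stands off the baseline, and the next highest is Mgat4c at 0.0785 FPKM.

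The surroundings of Sort1 were active in both groups. Of 51 genes within 1 Mb of Sort1, 24 were tested on FPKM, and 9 were higher, 10 were lower and 5 did not pass the threshold, with a median log2 fold change of 0.02. The nearest gene with a level above 0 was Psma5, which encodes a proteasome subunit and lies 4.11 kb away. It fell (log2 fold change -0.66, adjusted p = 0.00016, limma). Around Ntsr1, 28 of 56 genes were tested, with 7 higher and 12 lower, and around Ntsr2, 7 of 14 genes were tested, with 3 higher and 2 lower. These tallies stand beside 28.8% higher and 44.2% lower over all genes tested. The receptors at 0 FPKM thus lay among expressed genes, whereas Nts did not.

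The 5 genes whose log2(FPKM + 1) values over the 6 samples were closest to those of Nts were Csn2, Slamf1, Gbp2, Igtp and Ifit1, with root mean square differences of 0.32, 0.49, 0.59, 0.70 and 0.71. Csn2, which encodes the milk protein beta-casein, was at 0.245 ± 0.215 FPKM in the control and at 152 ± 11.95 in the shCTCF group. It had 0 counts in every sample, but fragments on exons shared between its 6 transcript forms were not assigned, so its counts say little of its level. Slamf1, which encodes a leukocyte surface receptor, was at 0.645 ± 0.154 and 172 ± 12.1 FPKM. Gbp2 (0.123 ± 0.115 and 107 ± 11.5), Igtp (0.995 ± 0.135 and 160 ± 14.8) and Ifit1 (0.636 ± 0.0775 and 112 ± 8.75) are interferon-inducible genes. This measure compares the height of the levels with that of Nts as well as their pattern, and it says nothing of shared control.

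Outside the 4 members, 134 genes of the pathway were taken in 8 lists, and 59 of them were tested on FPKM. Of these, 26 were higher, 23 were lower and 10 did not pass the threshold, which is 49 past it, beside the 73% called over all genes. Their median log2 fold change was 0.01, compared with -0.17 over all genes tested. On counts 41 were tested, of which 17 were higher, 13 were lower and 11 did not pass the threshold. The share called over all genes on counts was 69.1%.

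**Figure D4:**
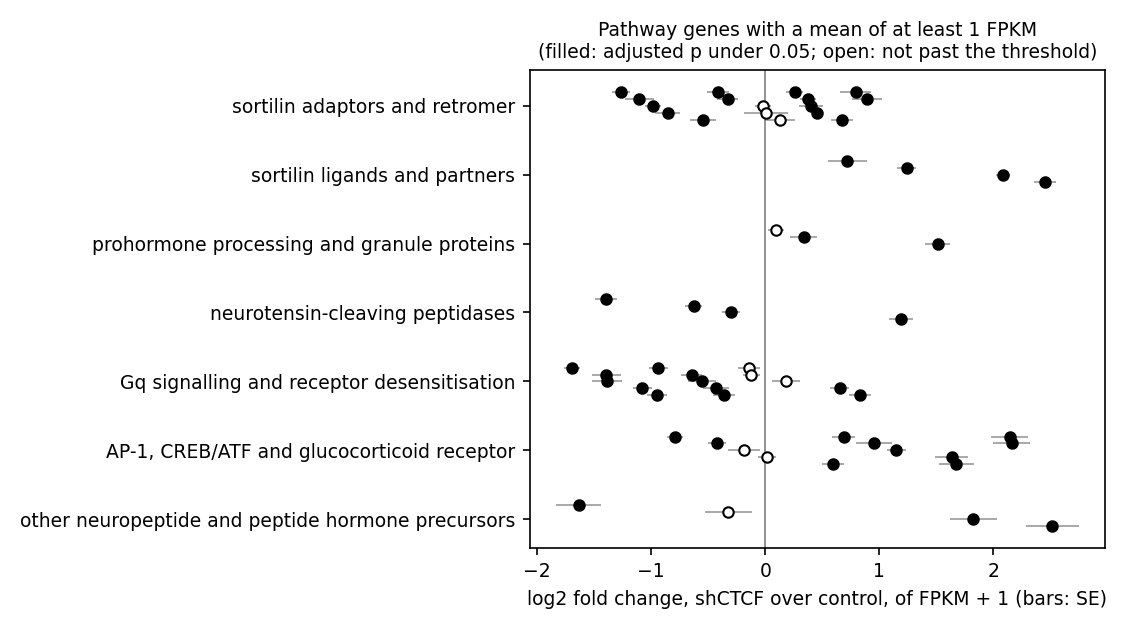
Log2 fold change of FPKM + 1 (shCTCF over control) for each of the 59 tested pathway genes by list, with SE as bars; filled points have an adjusted p under 0.05 in limma and open points do not. The ligands and partners of sortilin lie to the right of 0, most Gq signalling and desensitisation genes lie to the left, and the adaptors and retromer genes lie on both sides.

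The close relatives of Sort1, the other VPS10P receptors, were not expressed at a level that could be tested. Sorl1 was at 0 FPKM in every control and at 0.0279 ± 0.0148 in the shCTCF group, Sorcs1 was at 0 and 0.0527 ± 0.0433, Sorcs2 was at 0 and 0.00518 ± 0.00898, and Sorcs3 was at 0 in all samples. Sort1 was therefore the only member of its family above 1 FPKM.

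Sortilin depends on adaptors that load it into vesicles at the Golgi and on the retromer, which returns it from endosomes. All 17 genes of this list were tested on FPKM, and 7 were higher, 7 were lower and 3 did not pass the threshold, with a median log2 fold change of 0.01. The shares over all genes tested were 28.8% higher and 44.2% lower. Ap1m1, a subunit of the AP-1 clathrin adaptor, fell from 33.9 ± 1.83 to 13.5 ± 0.787 FPKM (log2 fold change -1.27, adjusted p = 4e-06). Gga3, an adaptor that binds the tail of sortilin, fell from 12.5 ± 2.14 to 5.26 ± 0.401 FPKM (-1.11, adjusted p = 0.00011). Igf2r, which encodes a mannose 6-phosphate receptor that shares these adaptors, rose from 1.13 ± 0.281 to 2.95 ± 0.214 FPKM (0.89, adjusted p = 0.00049). Snx2, a sorting nexin of the retromer pathway, rose from 37.7 ± 7.24 to 65.3 ± 2.56 FPKM (0.80, adjusted p = 0.001). The adaptors and the retromer genes thus did not move one way.

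Of 10 known ligands and partners of sortilin, 4 were tested on FPKM and all 4 were higher, with a median log2 fold change of 1.66. The share of higher genes over all genes tested was 28.8%. Grn, which encodes progranulin, a cargo that sortilin takes to lysosomes, was at 112, 143 and 111 FPKM in the controls and at 676, 670 and 657 in the shCTCF samples (2.45, adjusted p = 5.2e-07). Lrpap1, which encodes the receptor-associated protein that binds sortilin, was at 53.7, 57.3 and 58.7 FPKM in the controls and at 248, 246 and 237 in the shCTCF samples (2.09, adjusted p = 1.1e-07). On counts 3 of the list were tested, and Grn and Lrpap1 rose there too (2.67 and 2.27, adjusted p = 1.4e-10 and 8.1e-11, edgeR). Apoe did not pass the threshold on counts (0.73, adjusted p = 0.22, edgeR), and Psap was not tested there.

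The enzymes that cut the neurotensin precursor in neuroendocrine cells were at or near 0 FPKM. Of 16 genes of prohormone processing and secretory granules, 12 were under 1 FPKM in every sample and 3 were tested. Pcsk1 and Pcsk5 were at 0 FPKM in every sample, and Pcsk2 was at 0 in the control and 0.00710 ± 0.0123 in the shCTCF group. Furin, a convertase of the Golgi present in most cells, was at 198 ± 27.4 and 566 ± 56.4 FPKM (log2 fold change 1.51, adjusted p = 9.6e-06, limma), and its accession with the highest mean gave 1.86 (adjusted p = 1.8e-05). Its count difference was -0.24 (adjusted p = 0.19, edgeR), from 36 to 149 fragments per control and 79 to 102 per shCTCF sample. Furin has 2 accessions, and as for Sort1, fragments on exons that they share were not counted. Pcsk7, another widely expressed convertase, was at 6.87 ± 0.491 and 8.99 ± 1.35 FPKM (0.34, adjusted p = 0.032), and this call was lost without control replicate 3 or shCTCF replicate 1 or 2 (adjusted p = 0.082, 0.11 and 0.079). Its direction turned when only its highest accession was used (-0.82, adjusted p = 0.0068).

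Markers of neuroendocrine cells, a known source of neurotensin, were likewise at or near 0. Chga, Neurod1, Insm1 and Snap25 were at 0 FPKM in every sample, and the summed level of the 7 markers was 0 to 0.344 FPKM in the control and 0.320 to 0.716 in the shCTCF group. The 6 lymphatic and blood endothelial markers summed to 1.07 to 1.81 and 2.12 to 2.22 FPKM, with Prox1 and Cdh5 at 0, and Pecam1 the only one tested. The 12 fibroblast markers, which stand for the feeder layer, summed to 10.3 to 10.95 FPKM in the control and 8.62 to 9.01 in the shCTCF group, with Col3a1 and Lum at 0. These sums held opposite moves, since of the 4 tested on FPKM, Pdgfra (1.13 ± 0.530 and 4.16 ± 0.209) and Thy1 (0.382 ± 0.219 and 2.02 ± 0.123) were higher, while Pdgfrb (6.09 ± 0.799 and 2.16 ± 0.146) and Dcn (2.71 ± 0.107 and 0) were lower. Thy1 and Dcn reached the filter of 1 FPKM through 1 group alone. On counts 3 were tested, Pdgfra, Thy1 and Fbn1, and all 3 were higher. Over all genes, 28.8% were higher and 44.2% lower on FPKM, and 34.8% were higher on counts. The part of other cell types in the level of Nts was not tested.

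Of 6 peptidases that can cleave neurotensin, 4 were tested on FPKM, and 3 were lower and 1 was higher, with a median log2 fold change of -0.47. Over all genes tested, 44.2% were lower and 28.8% were higher, with a median of -0.17. On counts 4 were tested, of which 2 were lower, 1 was higher and 1 did not pass the threshold. The shares over all genes on counts were 34.3% lower and 34.8% higher. Thop1, which encodes thimet oligopeptidase, fell from 12.6 ± 1.02 to 4.16 ± 0.302 FPKM (-1.40, adjusted p = 7.3e-06), and it fell on counts as well (-1.27, adjusted p = 9.2e-07, edgeR). Nln, which encodes neurolysin, fell from 30.2 ± 2.04 to 19.2 ± 0.129 FPKM (-0.63, adjusted p = 0.00013). Prep, a prolyl endopeptidase, was at 12.3 ± 0.597 and 9.79 ± 0.334 FPKM (-0.30, adjusted p = 0.0088, limma). It did not pass the threshold with samples scaled to the same median (-0.14, adjusted p = 0.16, limma) or on counts (-0.10, adjusted p = 0.24, edgeR). Ece1, an endothelin-converting enzyme, rose from 1.20 ± 0.0695 to 4.02 ± 0.0719 FPKM (1.19, adjusted p = 2.2e-05). Mme, which encodes neprilysin, was at 0 in every sample, and Ace was at 0.0198 and 0.0118 FPKM on average.

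Downstream of a Gq-coupled receptor such as Ntsr1, 15 of 21 genes were tested on FPKM, of which 2 were higher, 10 were lower and 3 did not pass the threshold, with a median log2 fold change of -0.55. Among all genes tested, 28.8% were higher and 44.2% were lower, with a median of -0.17. On counts 9 of the list were tested, of which 2 were higher, 4 were lower and 3 did not pass the threshold. Grk2, a kinase that desensitises activated receptors, fell from 86.1 ± 5.05 to 25.9 ± 1.09 FPKM (-1.70, adjusted p = 6.1e-07), and Plcb3, a phospholipase C activated by Gq, fell from 16.5 ± 2.53 to 5.64 ± 0.675 FPKM (-1.39, adjusted p = 3.1e-05). Prkd2, a protein kinase D, rose from 26.2 ± 3.30 to 47.1 ± 1.07 FPKM (0.83, adjusted p = 1e-04), and Arrb2, a beta-arrestin, rose from 32.0 ± 3.11 to 50.8 ± 1.16 FPKM (0.65, adjusted p = 0.00019). Grk2, Plcb3 and Arrb2 were not tested on counts, while Prkd2 rose there too (0.90, adjusted p = 0.0049, edgeR). Of the G protein subunits themselves, Gnaq was listed at 0 FPKM in every control and at 0.0885, 0.178 and 0.286 FPKM in the shCTCF samples, and Gna11 was lower in the shCTCF group (5.70 ± 0.231 and 3.99 ± 0.597 FPKM, adjusted p = 0.01).

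Genes of AP-1, CREB/ATF and the glucocorticoid receptor, the factors whose motif letters were searched in the promoter of Nts, were expressed in both groups. All 12 were tested on FPKM, of which 8 were higher, 2 were lower and 2 did not pass the threshold, with a median log2 fold change of 0.82. Fosb, one of the 8, averaged under 1 FPKM in the control (0.473 ± 0.177) and was at 1.85 ± 0.346 in the shCTCF group. It entered the test through the shCTCF group alone, so its entry was not separate from the difference tested. Of all genes tested, 28.8% were higher and 44.2% were lower, with a median of -0.17. Jun was at 12.8, 20.2 and 14.3 FPKM in the controls and at 63.8, 76.2 and 79.2 in the shCTCF samples (2.16, adjusted p = 1.1e-05), and Fos was at 2.12, 1.71 and 1.94 in the controls and at 9.01, 14.3 and 13.0 in the shCTCF samples (2.14, adjusted p = 1.2e-05). Both were named under a rule that required no overlap between the groups, so their separation is not a further result. Atf1 fell from 68.0 ± 3.74 to 38.8 ± 1.96 FPKM (-0.79, adjusted p = 3e-05), and Atf2 fell from 23.9 ± 1.92 to 17.6 ± 0.156 (-0.42, adjusted p = 0.0018), although the latter call was lost when only its highest accession was used (-0.50, adjusted p = 0.088). Creb1 and Jund did not pass the threshold (adjusted p = 0.27 and 0.88), and Nr3c1, the glucocorticoid receptor, was higher, at 54.4 ± 6.93 and 82.3 ± 1.20 FPKM (0.60, adjusted p = 0.00073). On counts 7 of the list were tested, of which 6 were higher and 1, Atf1, was lower, beside 34.8% higher and 34.3% lower over all genes. Whether these factors act on Nts was not tested.

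Other precursors of neuropeptides and peptide hormones were mostly silent in both groups. Of 48 genes, 30 were at 0 FPKM in every sample and 42 were under 1 FPKM in every sample. Of the 4 tested, 2 were higher, 1 was lower and 1 did not pass the threshold, beside 28.8% higher and 44.2% lower over all genes. Nmb, which encodes neuromedin B, was at 0.673, 0 and 0.632 FPKM in the controls and at 8.78, 6.72 and 5.80 in the shCTCF samples (2.52, adjusted p = 3.2e-05). Ppy, which encodes pancreatic polypeptide, was at 0 in the controls and at 2.03, 1.99 and 3.92 FPKM in the shCTCF samples (difference of the mean log2(FPKM + 1) 1.83, adjusted p = 0.00011, limma). Adm, which encodes adrenomedullin, fell from 3.45 ± 1.17 to 0.400 ± 0.0716 FPKM (-1.64, adjusted p = 0.00015). Nmb and Ppy averaged under 1 FPKM in the controls, and Adm did in the shCTCF group. They entered the test through 1 group alone, so their entry was not separate from the difference tested. Nts, at 188 FPKM in the shCTCF group, was thus far above these precursors.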

How the data were processed

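Stranded mRNA libraries of 6 FGSC samples were aligned by the authors to mm9 with HISAT2 (version 4.8.2, as given). The deposited counts are whole fragments per RefSeq accession, made by the authors with featureCounts 1.6.2 without use of the strand, and fragments on exons of more than 1 accession were not assigned. Reads from a gene and its antisense partner cannot be told apart. The deposited FPKM were calculated by the authors with Cufflinks 2.2.1, which also divides shared fragments between forms. No value column was left without a sample (0 columns).

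Accessions were named with a RefSeq gene table of GRCm38.p6, used for names only (41186 of 41388 accessions with counts and 41685 of 41876 FPKM rows; unnamed accessions held at most 0.603% of a sample's counts). Values were summed per symbol, and genes are placed by the mm9 coordinates of the deposited counts. Total counts per sample were 1686052 to 7044272. Genes that averaged 1 FPKM or more were tested on log2(FPKM + 1) with limma 3.58.1 (eBayes with trend), so fold changes understate those of low genes. A gene low in 1 group could reach this mean through the other group alone. Counts were tested with edgeR 4.0.16 (quasi-likelihood, TMM, filterByExpr, R 4.3.3). The p-values are two-sided and Benjamini-Hochberg adjusted over all genes tested, with a threshold of 0.05, and the scripts were tested on simulated data. PCR copies were not told apart, so intervals and the floor of 3 counts hold for counting error alone.

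The members and lists were chosen with earlier results of these data known. Besides the members, Ctcf and the markers, the text names all genes of lists of up to 6, the 2 largest rises and 2 largest falls of longer lists among genes past the threshold whose groups do not overlap, the genes nearest to Nts, and the 5 closest to Nts in level. Other list genes, and Psma5, were named after their values were seen, and some list genes are not reported here by name. The alternatives were other pseudocounts, filters and scalings, DESeq2 1.42.0, the highest accession only, the replicate block and the omission of each replicate.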

Additional observations from a re-analysis of the deposited data

How the results depend on the processing

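The difference of Nts depended on the scale, since the controls were at or near 0. The difference of the mean log2 values was 7.53 with a pseudocount of 1, 10.6 with 0.1 and 13.2 with 0.01, 7.62 with samples scaled to the same median, and 8.61 from CPM. It lay between 7.498 and 7.561 without any 1 sample. The ratio of the Nts counts was 2106 by library size only, 2449 with DESeq2 size factors, and between 2018 and 3842 without any 1 sample, with the highest value without control replicate 3. The difference of Sort1 was -0.12 with samples scaled to the same median, and between -0.33 and -0.24 without any 1 sample. Without a filter on low values, 5 prohormone processing genes were past the threshold on FPKM and 4 on counts, compared with 2 on each, 6 other peptide precursors compared with 3, and 1 neighbour of Nts, Mgat4c, compared with 0. The prohormone count was 1 to 2 without any 1 sample, on FPKM (1 without control replicate 3, shCTCF replicate 1 or shCTCF replicate 2) and on counts (1 without control replicate 1, shCTCF replicate 1 or shCTCF replicate 3). Pcsk7 turned to -0.82 on FPKM with its highest accession only. The cause of these shifts was not tested, except that the filter changes which genes are tested. The pathway genes past the threshold were 46 to 51 on FPKM and 27 to 33 on counts without any 1 sample, against 49 and 30.

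The groups share replicate numbers, but correlations of same-numbered samples were -0.04, 0.02 and 0.04 on FPKM, so the numbers were not taken to pair the samples. With the replicate number as a block, 49 pathway genes were past the threshold on FPKM and 31 on counts, 18 genes around Sort1 compared with 19, and Ctcf remained at -5.12 (adjusted p = 7.4e-07, limma). Depth limits Ntsr1, for which under 3 counts could not be seen.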
